A study of Sus scrofa with 15 samples.

Results

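The genes described here are 10 regulators and markers of the epithelial and the mesenchymal state, VIM, FN1, CDH2, SNAI1, SNAI2, TWIST1, ZEB1, ESRP1, OVOL1 and GRHL2. They were chosen by name, through the NCBI Gene numbers that carry these pig symbols, with earlier results of these data already known. All 10 were listed in both expression tables, 10 of 19000 genes in the table of the knockdown libraries and 10 of 17001 in the table of the overexpression libraries. RNA sequencing had been done on IPEC-J2 cells, an untransformed line of piglet jejunal epithelium, carrying lentiviral vectors meant to lower miR-133 or miR-143, or to raise miR-143. The knockdown table held 3 libraries of Lv133KD, the miR-133 knockdown vector, 3 of the vector labelled Lv143KD and 3 of their control vector Lv3NC. The overexpression table held 3 libraries of OV143, the miR-143 overexpression vector, and 3 of its control vector Lv20NC. The design text names miR-133 as the target of Lv143KD while the sample label names miR-143, so the target of that vector is unsettled here and its label is used as a name. All 5 groups are the same cell line, and each control group also carries a lentiviral vector. No untransduced cells were analysed here, the miRNA levels were not analysed here, and whether a group's 3 libraries are separate cultures is not stated. The p-values therefore measure the spread between libraries, which may be technical.

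Epithelial cells hold to each other through E-cadherin (CDH1) and carry keratin filaments, while mesenchymal cells carry vimentin filaments and deposit a fibronectin matrix. The zinc-finger repressors SNAI1, SNAI2 and ZEB1 and the helix-loop-helix factor TWIST1 repress epithelial genes such as CDH1 and can drive the epithelial-mesenchymal transition, often downstream of TGF-beta. The splicing factor ESRP1 and the transcription factors OVOL1 and GRHL2 act on the epithelial side and oppose that program. Epithelial cells grown in culture often carry vimentin together with keratins.

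Values are FPKM, fragment counts scaled to transcript length and library size, so levels can be set side by side between genes. Read totals are lost in FPKM, and library depth is therefore not known. The tables were normalised separately and tests were made within a table. Tests used log2(FPKM + 1), on which a fold change of a low gene is understated, in limma, fitted over all genes that reached 1 FPKM in 3 or more of a table's libraries, 11645 genes in the knockdown table and 11506 in the overexpression table. A gene passed at a Benjamini-Hochberg adjusted p under 0.05 over all of these genes. The fit was made without and with the replicate number of the labels as a block. Of the 10 genes, 8 could be tested in the knockdown table, all but SNAI2 and GRHL2, and 7 in the overexpression table, where CDH2 was also too low.

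The libraries differed beyond their vectors. In the knockdown table the 3 libraries numbered 2 lay at -22.9 to -18.4 on the first principal component, which held 61.7% of the variance, and libraries 3 of Lv143KD and Lv3NC lay at 28.2 and 32.0. In the overexpression table library 2 of OV143 lay at 39.6, against -15.3 to 1.06 for the other 5 libraries, on a component with 68.7% of the variance, and its FPKM summed to 662022 against 518578 to 558042. Results of OV143 are therefore also given without that library. The epithelial label of the cells fitted their markers in every library. CDH1 stood at 158 to 184 FPKM and the epithelial adhesion molecule EPCAM at 267 to 359 FPKM in the knockdown table, against 159 to 258 and 486 to 718 FPKM in the overexpression table. Of 9 fibroblast markers 1 reached the filter, COL1A1 at 2.25 to 5.09 and 1.70 to 2.39 FPKM in the knockdown and overexpression tables, and the sum of the list was 3.28 to 6.69 and 2.27 to 3.02 FPKM. The fibroblast proteoglycan DCN stood at 0 to 0.01 FPKM in the knockdown table and at 0 to 0.04 FPKM in the overexpression table. The leukocyte marker PTPRC was listed at 0 in all 9 knockdown libraries. Of 6 leukocyte markers 1 reached the filter, CD68 at 1.33 to 2.61 FPKM in the knockdown table and 3.15 to 5.24 FPKM in the overexpression table. Of 6 endothelial markers 3 reached the filter in the knockdown table and 2 in the overexpression table. The endothelial cadherin CDH5 stood at 8.28 to 10.8 FPKM in the knockdown table and at 3.82 to 4.85 FPKM in the overexpression table. PECAM1 stood at 1.01 to 2.45 FPKM in the knockdown table and at 0.95 to 2.03 FPKM in the overexpression table.

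The 10 genes comprised 2 very abundant structural genes and 8 genes at a far lower level. Vimentin (VIM, chromosome 10, 43516441 to 43526172, coordinates here being those of RefSeq genes on Sscrofa11.1) was among the most abundant transcripts of these epithelial cells, at rank 39 to 73 of all genes in each of the 15 libraries. It stood at 1144, 1490.5 and 1096 FPKM in Lv133KD, at 1094, 1440.5 and 1260.2 FPKM in Lv143KD and at 1217, 1591 and 1438 FPKM in Lv3NC, and the 3 groups overlapped. In the overexpression table it stood at 1431, 1693 and 1564 FPKM in OV143, against 1537, 1676 and 1516 FPKM in Lv20NC, again with overlap. Vimentin was higher than keratin 8 (KRT8), the main simple-epithelial keratin measured, in each library, by 1.29 to 2.60 times in the knockdown table and 1.64 to 2.32 times in the overexpression table.

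Fibronectin (FN1, chromosome 15, 117658158 to 117737145), the matrix glycoprotein bound by integrins, was at a level like that of vimentin. It stood at 1098, 1722 and 1283 FPKM in Lv133KD, at 1114, 1694 and 1849 FPKM in Lv143KD and at 1164, 1447 and 1579.6 FPKM in Lv3NC. It stood at 2724, 1382 and 2629 FPKM in OV143, against 2393, 1929 and 2449.7 FPKM in Lv20NC. Library 2 of OV143 was the lowest of that table and lay far from the other 2 libraries of its group. FN1 exceeded VIM in 6 of 9 knockdown libraries and 5 of 6 overexpression libraries, and the ranges of the 2 genes overlapped in both tables.

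The third mesenchymal structural gene, N-cadherin (CDH2, chromosome 6, 112396713 to 112629073), was low. It ranged from 2.62 to 2.77 FPKM in Lv133KD, from 2.66 to 3.95 FPKM in Lv143KD and from 2.53 to 3.25 FPKM in Lv3NC. It ranged from 0.38 to 0.98 FPKM in OV143, against 0.73 to 1.11 FPKM in Lv20NC. The cells thus carried abundant vimentin and fibronectin transcripts beside an N-cadherin transcript far below that of E-cadherin.

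Among the 4 mesenchymal transcription factors of the 10 genes, SNAI1 (Snail, chromosome 17, 51546446 to 51552498) was the highest. It stood at 21.8, 10.2 and 20.1 FPKM in Lv133KD, at 24.6, 9.78 and 19.7 FPKM in Lv143KD and at 21.8, 14.0 and 16.9 FPKM in Lv3NC, with the library numbered 2 the lowest of each group. TWIST1 (chromosome 9, 88286911 to 88290131) varied little, at 3.63 to 4.64 FPKM in Lv133KD, 3.11 to 4.95 FPKM in Lv143KD, 4.06 to 4.66 FPKM in Lv3NC, 3.61 to 4.16 FPKM in OV143 and 3.74 to 4.36 FPKM in Lv20NC. ZEB1 (chromosome 10, 42013114 to 42216139) ranged from 2.79 to 4.68 FPKM over the knockdown table and from 1.25 to 1.65 FPKM over the overexpression table. SNAI2 (Slug, chromosome 4, 79264880 to 79268475) stayed under 1 FPKM in every library, at 0.16 to 0.83 FPKM in the knockdown table and 0.26 to 0.62 FPKM in the overexpression table. Of their relatives, ZEB2 averaged 0.476 and 0.208 FPKM and SNAI3 0.0533 and 0.197 FPKM in the knockdown and overexpression tables, and TWIST2 averaged 0.0222 FPKM in the knockdown table.

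On the epithelial side ESRP1, OVOL1 and GRHL2 were present at unequal levels. ESRP1 (chromosome 4, 41993944 to 42061706) stood at 8.22, 6.93 and 8.44 FPKM in Lv133KD, at 8.13, 7.88 and 14.4 FPKM in Lv143KD and at 11.1, 7.48 and 14.98 FPKM in Lv3NC. In the overexpression table it stood at 12.5, 8.83 and 11.6 FPKM in OV143, against 11.6, 10.8 and 11.9 FPKM in Lv20NC. Its relative ESRP2 averaged 0.0978 and 0.155 FPKM in the knockdown and overexpression tables, far below ESRP1. OVOL1 (chromosome 2, 6526679 to 6538992) stood at 7.26, 9.04 and 7.07 FPKM in Lv133KD, at 6.15, 9.15 and 6.10 FPKM in Lv143KD and at 5.70, 9.36 and 4.83 FPKM in Lv3NC, with the library numbered 2 the highest of each group. GRHL2 (chromosome 4, 35368788 to 35565394) stood at 0.18 to 0.22 FPKM in Lv133KD, 0.12 to 0.24 FPKM in Lv143KD and 0.16 to 0.20 FPKM in Lv3NC. The other grainyhead genes were higher, GRHL1 at 9.48 and 7.48 FPKM and GRHL3 at 6.38 and 5.86 FPKM on average in the knockdown and overexpression tables.

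**Figure D1:**
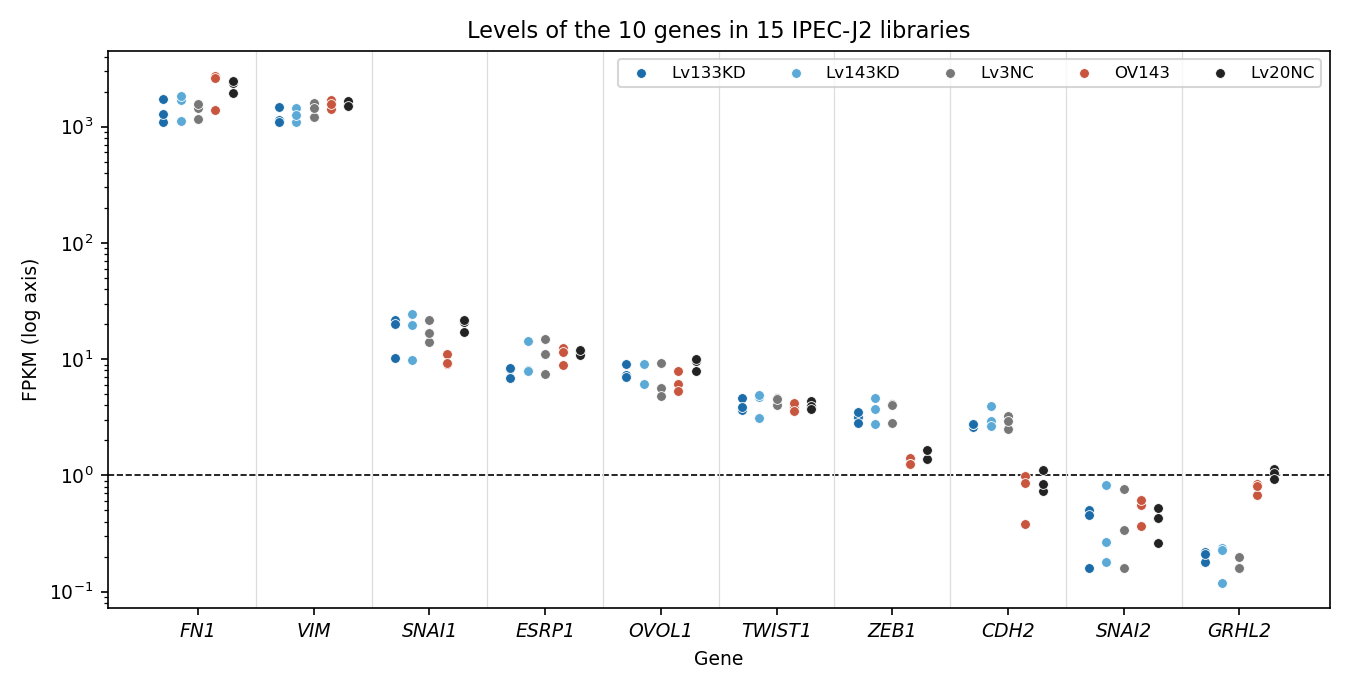
FPKM (log axis) of each gene in each of the 15 libraries, 1 point per library, coloured by vector group; the dashed line marks 1 FPKM. FN1 and VIM lie between 1094 and 2724 FPKM, while the other 8 genes lie between 0.12 and 24.6 FPKM.

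From high to low the order of the mean levels in the knockdown table was FN1, VIM, SNAI1, ESRP1, OVOL1, TWIST1, ZEB1, CDH2, SNAI2 and GRHL2. Of the neighbours in that order, only VIM with SNAI1 and CDH2 with SNAI2 had ranges that did not meet, and the other 7 neighbouring pairs overlapped. In the overexpression table the order was the same down to ZEB1, with GRHL2, CDH2 and SNAI2 following. There the ranges of VIM and SNAI1, of OVOL1 and TWIST1, of TWIST1 and ZEB1 and of ZEB1 and GRHL2 did not meet, and the other 5 neighbouring pairs overlapped.

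SNAI1 was lower in OV143 than in Lv20NC. It stood at 9.09, 11.04 and 9.21 FPKM in OV143, against 21.1, 21.8 and 17.2 FPKM in Lv20NC, so that the highest OV143 library lay below the lowest control. The means were 9.78 ± 1.09 FPKM in OV143 and 20.02 ± 2.51 FPKM in Lv20NC (SD, n = 3 each), 1.95-fold lower on the log2(FPKM + 1) scale. The log2 fold change was -0.96 (SE 0.13, 95% interval -1.26 to -0.66), and SNAI1 was lower in 3 of 3 libraries paired by number. The limma adjusted p was 0.0819 without the block, above the threshold, and 0.00582 with it, where SNAI1 fell and ranked 7 of all 11506 genes by p. Over all genes, 0% (0 of 11506) passed in this comparison without the block, with a smallest limma adjusted p of 0.0590 and 1304 genes at an unadjusted p under 0.05. With the block 1.94% passed, 1.29% lower and 0.643% higher, and 2288 genes had an unadjusted p under 0.05. An exact permutation test of 3 libraries against 3 cannot go below p = 0.1. Without library 2 of OV143 the log2 fold change was -1.04 with a limma adjusted p of 0.000642 without the block, and over all genes 3.12% passed as lower and 1.34% as higher. In bulk libraries fewer cells that carry a transcript and less of it per cell cannot be told apart.

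OVOL1 and GRHL2 also had lower means in OV143, without a call when all libraries were used. OVOL1 stood at 6.17, 7.88 and 5.31 FPKM in OV143, against 9.64, 9.99 and 7.84 FPKM in Lv20NC, where only library 2 of OV143 and library 3 of Lv20NC crossed. Its log2 fold change was -0.45 (SE 0.15), with a limma adjusted p of 0.325 without the block and 0.0638 with it. Without library 2 of OV143 the log2 fold change of OVOL1 was -0.59 with a limma adjusted p of 0.0169. With the block and without 1 replicate number, which leaves 2 libraries per group, OVOL1 passed as lower in 1 of 3 fits. The limma adjusted p of these fits ran from 6.79e-06 to 0.409. GRHL2 stood at 0.84, 0.68 and 0.81 FPKM in OV143, against 1.13, 1.04 and 0.93 FPKM in Lv20NC. The GRHL2 groups did not overlap, which held for 21.9% of all tested genes, 12.9% lower and 8.96% higher, but GRHL2 was under the filter and was not tested.

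The remaining genes gave no call between OV143 and Lv20NC. The log2 fold change of VIM was -0.01 with a 95% interval of -0.31 to 0.28, that of TWIST1 -0.04 (-0.28 to 0.19), that of ZEB1 -0.10 (-0.32 to 0.12) and that of ESRP1 -0.07 (-0.38 to 0.25). For FN1 it was -0.06 with a wide interval of -0.71 to 0.58, and without library 2 of OV143 it was 0.25 with a limma adjusted p of 0.253. With the block and without both libraries numbered 2 it was 0.14, and FN1 passed as higher at a limma adjusted p of 0.0274. That fit holds only 2 libraries per group. Over all genes far more passed in it than in the blocked fit of all libraries, with both counts given under the processing below. In all, 0 of 7 tested genes passed without the block, where the unadjusted p was under 0.05 for 2 of them, and 1 of 7 passed with it. Their median log2 fold change was -0.07, against -0.02 over all tested genes.

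**Figure D2:**
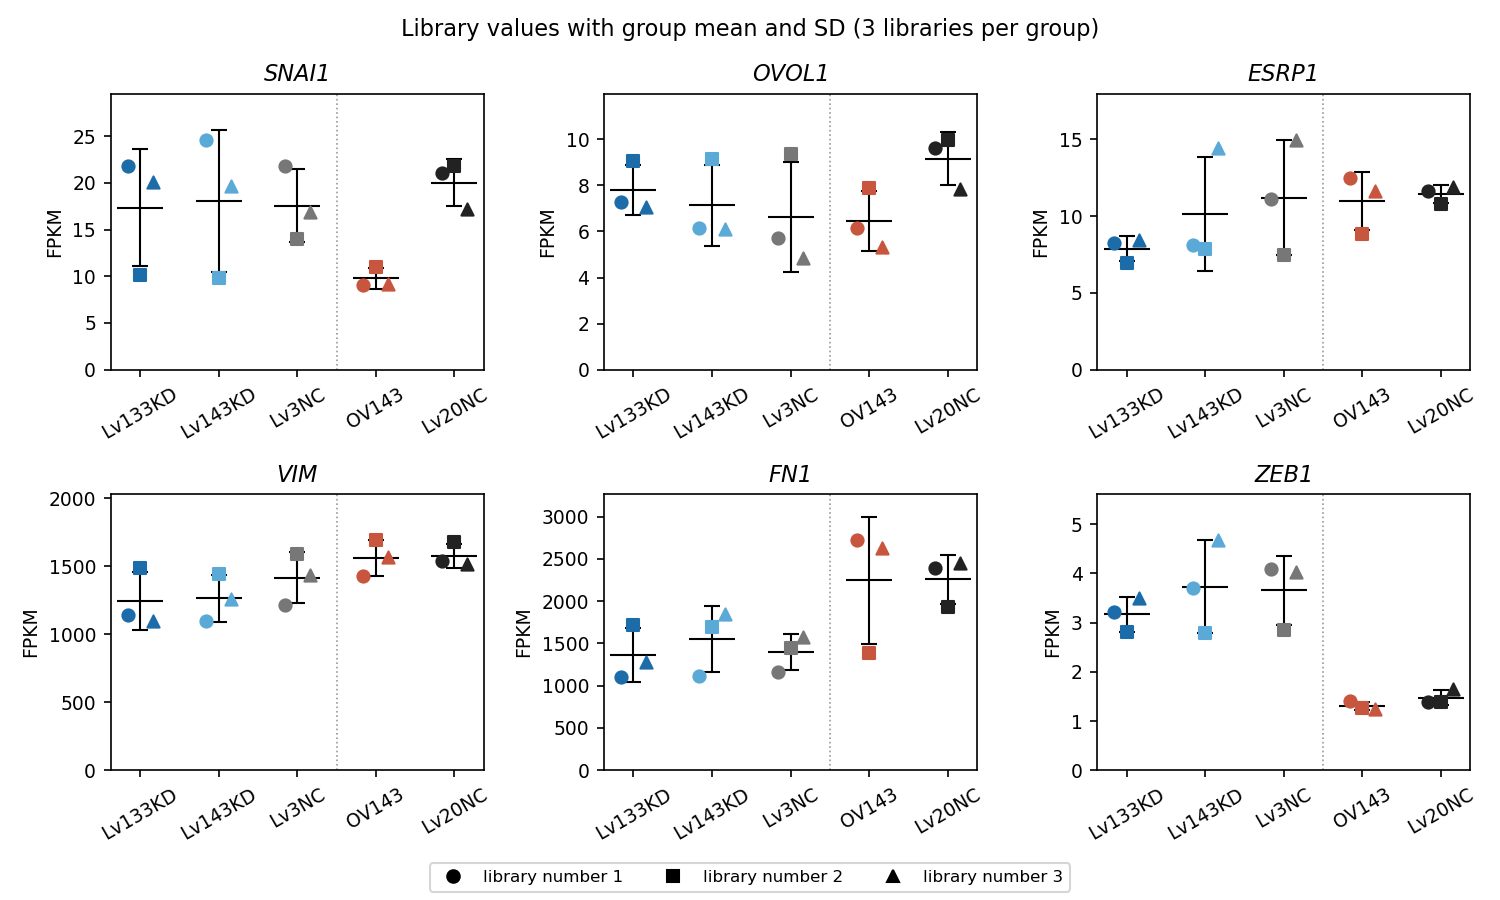
FPKM of 6 of the genes in each library by vector group, with markers for the library number, a horizontal line for the group mean and bars for the SD (3 libraries per group); the dotted line parts the separately normalised tables. SNAI1 lies at 9.09 to 11.04 FPKM in OV143, against 17.2 to 21.8 FPKM in Lv20NC, and the squares of library number 2 are the lowest of each knockdown-table group for SNAI1 and the highest for OVOL1.

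E-cadherin, a repression target of SNAI1, was not higher in OV143. CDH1 stood at 226.1, 159 and 226.2 FPKM in OV143, against 258, 238 and 252 FPKM in Lv20NC, with a log2 fold change of -0.31 and a limma adjusted p of 0.497, and without library 2 of OV143 it was -0.14 with an adjusted p of 0.326. EPCAM stood at 608, 718 and 634 FPKM in OV143, against 486, 571 and 557 FPKM in Lv20NC, with a log2 fold change of 0.28 and a limma adjusted p of 0.450, and without that library 0.21 with an adjusted p of 0.227. Neither passed, also with the block, at adjusted p of 0.178 and 0.184.

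Genes around the 10 were read from lists of the same biology. Without the block 0 genes of these lists passed in OV143, and the calls that follow come from the limma fit with the block. Among 19 tested genes of TGF-beta signalling 3 fell and 0 rose. All 3 act as brakes on TGF-beta signalling and are themselves known TGF-beta-responsive or Smad-linked genes. Other brakes in the list, SKI, SKIL, SMURF2 and TGIF1, did not pass. Without library 2 of OV143 and without the block their log2 fold changes were -0.22, 0.07, -0.15 and -0.17. The limma adjusted p of these ran from 0.139 to 0.848. SMAD7, the inhibitory Smad, stood at 8.06, 7.41 and 8.55 FPKM in OV143, against 14.3, 15.7 and 12.2 FPKM in Lv20NC (adjusted p = 0.0194). SMURF1, a ubiquitin ligase that targets Smads and receptors, averaged 12.9 ± 1.29 FPKM in OV143 and 20.4 ± 0.923 FPKM in Lv20NC (SD, n = 3 each; limma adjusted p = 0.0204). PMEPA1, which sequesters receptor Smads, averaged 35.8 ± 1.06 FPKM in OV143 and 54.0 ± 6.45 FPKM in Lv20NC (limma adjusted p = 0.0238). Of the 19 genes, 9 lay wholly below the controls, or 47.4%, against 12.9% of all tested genes, and the count was also 9 without library 2 of OV143, where the share over all genes was 23.6%. The median log2 fold change of the list was -0.19.

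Among 16 tested mesenchymal markers 1 rose and 1, not reported here, fell. TGFBI, a secreted matrix protein induced by TGF-beta, rose to 22.2 ± 0.414 FPKM in OV143, against 15.9 ± 0.505 FPKM in Lv20NC (limma adjusted p = 0.0459). The median log2 fold change of these markers was 0.14, with 10 of 16 above 0. Of the 16, 5 lay wholly above the controls and 3 wholly below, against 8.96% and 12.9% of all tested genes. Among 6 tested mesenchymal transcription factors other than the 4 above, ETS1 fell, to 82.9 ± 25.7 FPKM in OV143, against 125 ± 10.1 FPKM in Lv20NC (limma adjusted p = 0.0474). With all libraries all 6 were lower, with a median of -0.33 on the log2 scale. Without library 2 of OV143 the median was -0.12, and TCF4 turned to 0.12 while the others stayed lower.

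Among 12 other epithelial regulators 2 Krüppel-like factors fell and 0 genes rose. KLF4, a factor of differentiating epithelium, stood at 26.9, 14.7 and 26.9 FPKM in OV143, against 52.9, 52.7 and 38.3 FPKM in Lv20NC (log2 fold change -1.07, limma adjusted p = 0.0240). KLF5, a factor of proliferating crypt epithelium, averaged 52.3 ± 16.8 FPKM in OV143 and 81.1 ± 13.8 FPKM in Lv20NC (limma adjusted p = 0.0378), and without library 2 of OV143 it missed the call at 0.0994. Of these 12 genes 7 lay wholly below the controls, or 58.3%, against 12.9% of all tested genes. Without that library the count was also 7, against 23.6% of all tested genes. Regulators of both sides thus included genes with lower values in OV143.

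Among 12 tested fibronectin receptors and assembly genes 2 fell. The integrin alpha-3 gene ITGA3 averaged 295 ± 12.3 FPKM in OV143 and 459.7 ± 34.5 FPKM in Lv20NC (limma adjusted p = 0.0205). The syndecan gene SDC4 averaged 397 ± 60.4 FPKM in OV143 and 646 ± 77.2 FPKM in Lv20NC (limma adjusted p = 0.0209). The median of this list was -0.16 with all libraries and 0.02 without library 2 of OV143. Of 27 tested adhesion and polarity genes 0 passed, with a median of -0.09 on the log2 scale. The fibroblast markers summed to 2.72 to 3.02 FPKM in OV143, against 2.27 to 2.79 FPKM in Lv20NC. Endothelial markers summed to 5.55 to 7.06 FPKM in OV143, against 7.15 to 7.34 FPKM in Lv20NC, and smooth muscle markers to 3.42 to 5.81 FPKM in OV143, against 3.03 to 3.37 FPKM in Lv20NC. Leukocyte markers summed to 5.36 to 6.80 FPKM in OV143, against 4.90 to 5.42 FPKM in Lv20NC, and epithelial identity markers to 2306 to 3396 FPKM in OV143, against 2437 to 2733 FPKM in Lv20NC. The part of these marker sums in the differences above was not tested.

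Without library 2 of OV143 and without the block, 5 of the 19 TGF-beta genes fell. TGFBR2 (-0.34 on the log2 scale, limma adjusted p = 0.0293) and SMAD3 (-0.32, 0.0476) joined SMAD7, SMURF1 and PMEPA1. TGFBR2 is a TGF-beta receptor and SMAD3 a receptor-activated Smad. Of the mesenchymal markers 2 rose, TGFBI and the collagen crosslinking enzyme gene LOX (0.43, limma adjusted p = 0.0457), and 1 fell. Among the mesenchymal transcription factors 2 fell, ETS1 and SOX9 (-0.49, limma adjusted p = 0.0221). Among the epithelial regulators KLF4 fell, with a limma adjusted p of 0.00676. ITGA3 and SDC4 fell here too.

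**Figure D3:**
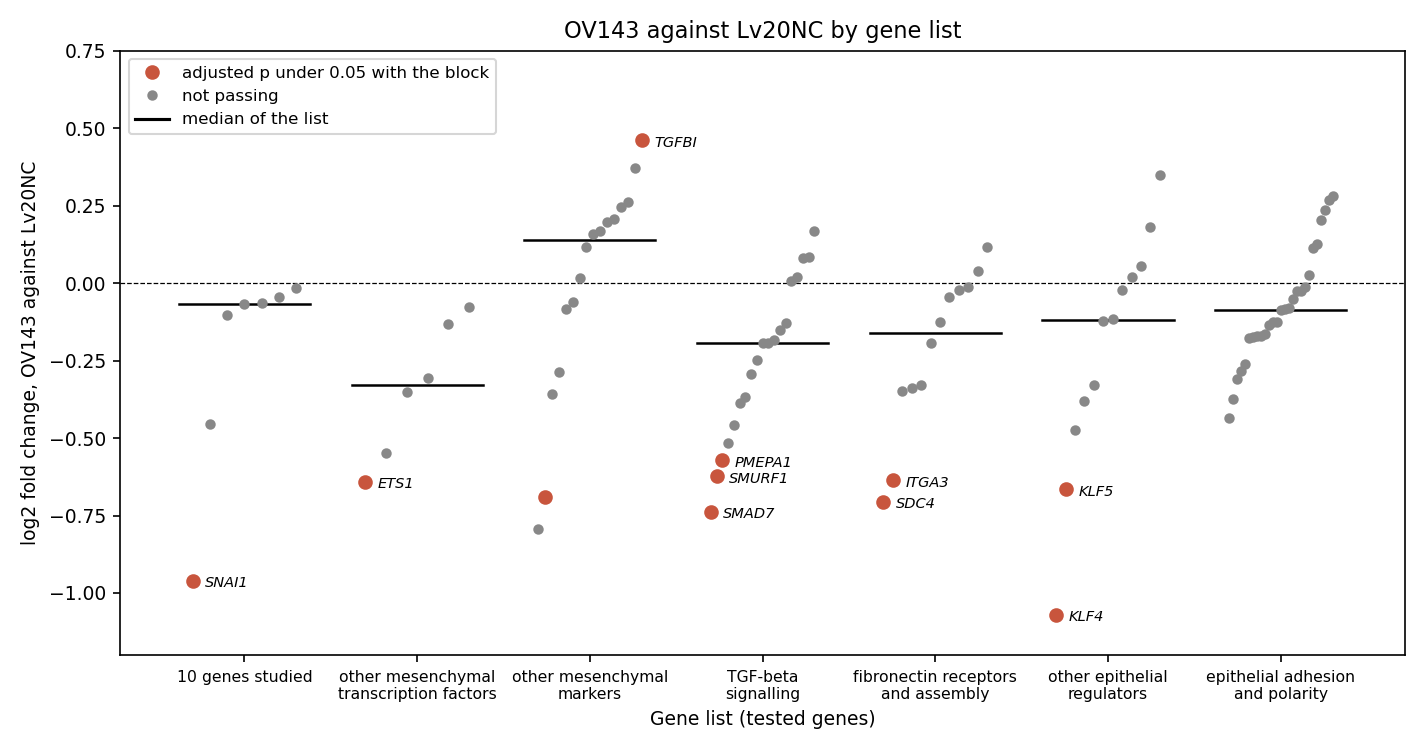
Log2 fold change of OV143 against Lv20NC for each tested gene of 7 lists, with the median of each list as a line; orange points passed in the limma fit with the block, and those described in the text are named. SNAI1 at -0.96 and KLF4 at -1.07 are the lowest of the named genes, and TGFBI at 0.46 is the only named gene above 0.

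The knockdown vectors gave no call in these genes. Against Lv3NC, 0 of 8 tested genes passed in Lv133KD and 0 of 8 in Lv143KD, in limma without or with the block. Over all genes 0.0172% passed in each of these comparisons without the block, and with it 0.258% passed in Lv133KD and 0.172% in Lv143KD. At an unadjusted p under 0.05 there were 0 of the 8 without the block in either comparison, and with it 2 in Lv133KD and 0 in Lv143KD. Groups without overlap were seen in 8.02% and 4.14% of all tested genes and in 0 of the 8. The 2 comparisons share the Lv3NC libraries. The median log2 fold change of the 8 genes was -0.09 in Lv133KD and -0.01 in Lv143KD, against 0.01 and -0.01 over all genes.

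ESRP1 had the lowest value in Lv133KD relative to its control. Its mean was 7.86 ± 0.816 FPKM in Lv133KD, against 11.2 ± 3.75 FPKM in Lv3NC (SD, n = 3 each), a log2 fold change of -0.42 (SE 0.26, 95% interval -1.01 to 0.18). It was lower in 3 of 3 pairs of equal number, with a limma adjusted p of 0.926 without the block and 0.247 with it. Leaving out 1 library moved its log2 fold change between -0.65, without library 2 of Lv3NC, and -0.20, without library 3 of Lv3NC. OVOL1 was at 0.24 on the log2 scale in Lv133KD, with a limma adjusted p of 0.300 with the block, and at 0.07 to 0.48 after leaving out 1 library. VIM averaged 1244 ± 215 FPKM in Lv133KD, against 1415 ± 188 FPKM in Lv3NC, a log2 fold change of -0.19 (95% interval -0.54 to 0.16), and was lower in 3 of 3 pairs, with a limma adjusted p of 0.313 with the block and a range of -0.33 to -0.10 after leaving out 1 library. In Lv143KD the log2 fold change of VIM was -0.16, with a range of -0.27 to -0.06, also lower in 3 of 3 pairs. That of SNAI1 was -0.06 in Lv133KD with a wide 95% interval of -0.87 to 0.74.

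Between Lv133KD and Lv143KD 0 of 8 genes passed, 0% of all genes did so without or with the block, and 0 of the 8 had an unadjusted p under 0.05. The median log2 fold change of the 8 was -0.10, against 0.02 over all genes. Groups without overlap made up 2.66% of all genes and 0 of the 8. Genes of the surrounding lists gave 0 calls in any of these 3 comparisons, in either fit.

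**Figure D4:**
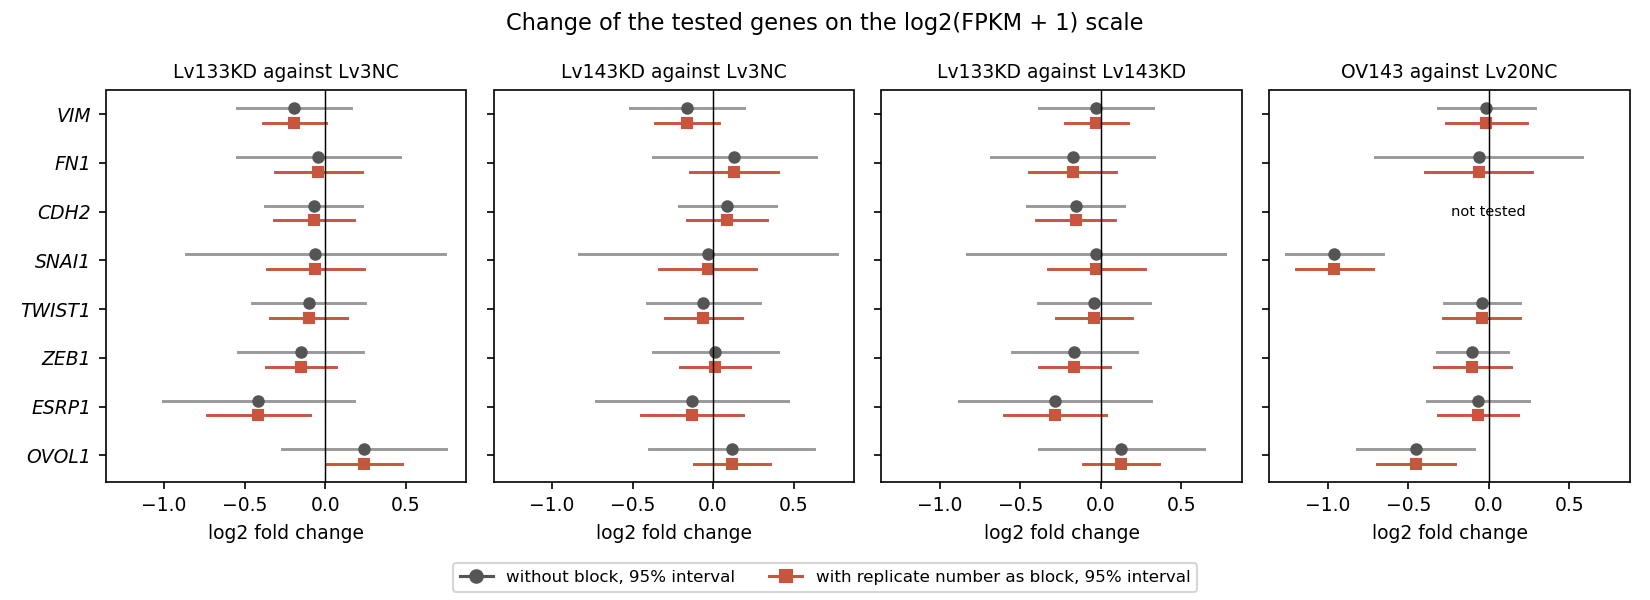
Log2 fold change with its 95% interval of each tested gene in the 4 comparisons, without the block (grey circles) and with the replicate number as block (orange squares). The interval of SNAI1 in OV143 against Lv20NC runs from -1.26 to -0.66, and the estimates in the 3 knockdown panels lie between -0.42 and 0.24.

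In the knockdown table most of these genes varied with the replicate number of the library. What a number marks is not stated in the labels. In an F test of the number beside the vector group, 6 of 8 tested genes passed, against 36.6% of all genes. SNAI1 stood at 9.78 to 14.0 FPKM in the 3 libraries numbered 2, against 16.9 to 24.6 FPKM in the other 6 (log2 difference -0.83, limma adjusted p = 0.00315). OVOL1 went the opposite way, at 9.04 to 9.36 FPKM in the libraries numbered 2, against 4.83 to 7.26 FPKM in the others (0.51, limma adjusted p = 0.00810). ESRP1 stood at 6.93 to 7.88 FPKM in the libraries numbered 2, against 8.13 to 14.98 FPKM in the others (limma adjusted p = 0.0181). ZEB1 stood at 2.79 to 2.85 FPKM, against 3.21 to 4.68 FPKM (limma adjusted p = 0.0248), and VIM at 1440.5 to 1591 FPKM, against 1094 to 1438 FPKM (limma adjusted p = 0.0201). The libraries numbered 2 thus held more VIM and OVOL1 and less SNAI1, ZEB1 and ESRP1 than all other libraries, with no common direction of the mesenchymal or the epithelial side. Over all genes the libraries numbered 2 lay above all others in 12.1% and below all others in 19.1%.

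FN1 also passed the F test (limma adjusted p = 0.0164), with libraries numbered 1 the low ones, at 1098 to 1164 FPKM, against 1283 to 1849 FPKM in the others. TWIST1 and CDH2 did not pass, at adjusted p of 0.0815 and 0.321. SNAI2, too low to test, stood at 0.16 to 0.18 FPKM in the libraries numbered 2, against 0.27 to 0.83 FPKM in the others. SNAI1 passed after leaving out any of the 9 libraries and OVOL1 after leaving out 8 of them, missing at an adjusted p of 0.0571 without library 2 of Lv143KD. ESRP1 passed in 5, VIM in 5, ZEB1 in 6 and FN1 in 7 of these 9 fits, and none of these 4 passed without library 2 of Lv143KD. Among the overexpression libraries 0 of 7 genes passed the F test, where 0.0521% of all genes did, and the smallest adjusted p was 0.131, for FN1.

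**Figure D5:**
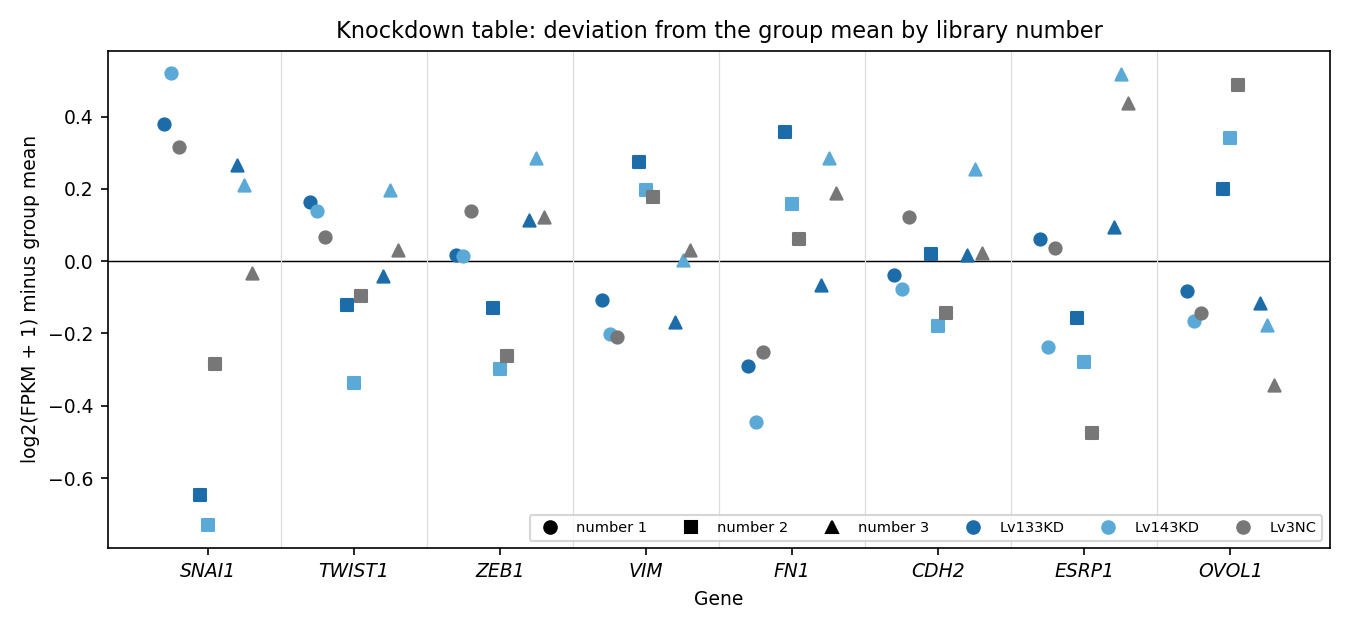
Deviation of each knockdown-table library from the mean of its vector group on the log2(FPKM + 1) scale for the 8 tested genes, with a marker shape for each library number and a colour for each group. The 3 squares of library number 2 lie below 0 for SNAI1, ZEB1 and ESRP1 and above 0 for VIM and OVOL1.

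The genes whose profile was most like each of 7 of the 10 were found by the smaller of Pearson's r over the 9 knockdown and the 6 overexpression libraries, among 10723 genes tested in both tables. These correlations describe libraries that share vector groups, replicate numbers and a table's normalisation. SNAI1 was most like SH3RF2 (r = 0.98 and 0.99 in the knockdown and overexpression tables), BCL3 (0.97 and 0.98) and LIF (0.97 and 0.97). These 3 were picked for their likeness to SNAI1 over the same OV143 and Lv20NC libraries, so their levels there are a description with no test. SH3RF2 averaged 4.85 ± 0.255 FPKM in OV143 and 7.15 ± 0.660 FPKM in Lv20NC. BCL3, a nuclear IkB-family protein, averaged 7.31 ± 0.401 FPKM in OV143 and 11.3 ± 1.63 FPKM in Lv20NC. LIF, a cytokine of the interleukin-6 family, averaged 4.19 ± 0.243 FPKM in OV143 and 8.18 ± 0.966 FPKM in Lv20NC. OVOL1 was most like TNS4 (0.94 and 0.99), SLC37A1 and PIAS3, and ESRP1 most like KCTD9 (0.98 and 0.99), ATF6 and SCYL2. FN1 was most like LGR4 (0.94 and 0.94), UBE2W and DPP4, VIM most like ORMDL2 (0.93 and 0.85), PSMA6 and CAPNS1, TWIST1 most like EXOC3L4 (0.90 and 0.90), D2HGDH and PCBP4, and ZEB1 most like TOM1L1 (0.93 and 0.94), DCAF17 and TRAPPC6B.

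Between the control vectors 3 of the 10 genes differed past 2-fold, set across separately normalised tables and without a test. GRHL2 averaged 1.03 FPKM in Lv20NC and 0.173 FPKM in Lv3NC, 5.96-fold higher in Lv20NC. CDH2 averaged 0.897 FPKM in Lv20NC and 2.91 FPKM in Lv3NC, 3.25-fold higher in Lv3NC, and ZEB1 averaged 1.48 FPKM in Lv20NC and 3.66 FPKM in Lv3NC, 2.48-fold higher in Lv3NC. FN1 was 1.62-fold higher in Lv20NC, and VIM was 1.11-fold higher. Of 13324 genes compared 8.95% differed past 2-fold, 5.08% higher and 3.87% lower in Lv20NC, around a median log2 ratio of 0.05. The vector, the culture and the table's processing cannot be told apart in this comparison.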

How the data were processed

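FPKM values of each gene, as the authors deposited them (per the file headers), came in a table of 9 knockdown libraries and another of 6 overexpression libraries. The build is Sscrofa11.1 per the submitters' processing notes. For the aligner, counter, annotation and strand use, the entry is: not given in the sources used here. Symbols and 1-based coordinates came from a RefSeq gene table of that build, which matched 18618 of 19000 and 16949 of 17001 genes. Per-sample columns left unused numbered 0.

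Values were tested as log2(FPKM + 1) by two-sided limma (3.58.1, R 4.3.3) with trended variances, on genes that reached 1 FPKM in 3 or more libraries, and a Benjamini-Hochberg threshold of 0.05 over all tested genes. The fit was tested on simulated data. Deviations from group means of libraries with the same replicate number correlated at 0.27 to 0.85 over 9 knockdown pairs and 0.23 to 0.72 over 3 overexpression pairs, all above the limit of 0.1 used for pairing, so the blocked value stands beside results it changes. Only this check supports the pairing, because the labels leave the number's meaning open.

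The 10 genes and the 13 lists of 166 symbols around them were chosen with earlier results of these data known. Named genes were the 10, up to 4 passing genes of a list, CDH1 and EPCAM, defining markers and the 3 genes most like each of the 10. Relatives of the 10, keratin 8, DCN and list genes that passed only without library 2 of OV143 were named after their values were seen. So were SKI, SKIL, SMURF2 and TGIF1. Alternatives were another pseudocount, no filter, median-centred libraries, the block, library weights, 2-group fits and leaving out libraries. The lists without library 2 of OV143 and the number test without each library were added after the data were seen. Results of some genes that the naming rule selects are not reported here.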

Additional observations from a re-analysis of the deposited data

How the results depend on the processing

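Of the 10 genes, SNAI1 in OV143 against Lv20NC kept its direction in every alternative run, with log2 fold changes of -1.09 to -0.88, and passed with the replicate block, with library weights and without library 2 of OV143. The block changed the call of no other of the 10 in a vector comparison. It moved the genes passing to 30 in Lv133KD and 20 in Lv143KD against Lv3NC, where 2 passed without it, and to 223 in OV143, where 0 did. With library weights 205, 70 and 2650 genes passed in these 3 comparisons. Without a filter 1 gene passed in each knockdown comparison, with median-centring 0 in Lv133KD, with only the 2 groups in the fit 0 in both, and after leaving out any 1 library 0 (range 0 to 0). In OV143 leaving out 1 library gave 0 to 513 genes, 513 without its library 2. With the block and without number 1, 2 or 3, 1, 12 and 72 genes passed in Lv133KD, 60 in Lv143KD without number 3, and 705, 1466 and 297 in OV143. The F test of the number gave 1445 to 6915 genes in the knockdown table when 1 library was left out, the lowest without library 2 of Lv143KD and the highest without library 3 of Lv133KD. In the overexpression table it gave 2 genes with a pseudocount of 0.1, 0 without a filter and 144 to 6268 without 1 library. Without a filter VIM, ZEB1, FN1 and ESRP1 missed this F test at adjusted p of 0.0732, 0.0667, 0.0695 and 0.0630.

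Some log2 fold changes that did not pass in the reported fit turned sign, and the cause was not tested. With library weights they were 0.016 for FN1 in Lv133KD against Lv3NC; 0.064, -0.095 and -0.072 for SNAI1, ZEB1 and CDH2 in Lv143KD against Lv3NC; 0.024 and 0.0040 for VIM and FN1 in Lv133KD against Lv143KD; and 0.17 and 0.049 for FN1 and ESRP1 in OV143. Median-centring gave 0.00047 for VIM in OV143. With the block and without a number, Lv133KD against Lv3NC gave 0.010 for CDH2, 0.12 for SNAI1 and 0.084 for FN1. Lv143KD against Lv3NC gave 0.0070 for ESRP1, 0.19 for SNAI1, 0.060 for TWIST1, -0.067 for ZEB1 and -0.030 for CDH2. Lv133KD against Lv143KD gave 0.039 for SNAI1, 0.057 for VIM, 0.077 for TWIST1 and 0.0021 for FN1, and OV143 gave 0.030 for VIM, 0.0041 for TWIST1, 0.14 for FN1, which passed as higher there (without number 2, adjusted p = 0.0274, 4 libraries), and 0.033 for ESRP1.

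Leaving out 1 library gave, in Lv133KD against Lv3NC, -0.25 to 0.26 for SNAI1 and -0.22 to 0.10 for FN1. In Lv143KD against Lv3NC it gave -0.29 to 0.33 for SNAI1, -0.16 to 0.11 for TWIST1, -0.13 to 0.16 for ZEB1, -0.041 to 0.18 for CDH2, -0.012 to 0.35 for FN1, -0.39 to 0.088 for ESRP1 and -0.055 to 0.36 for OVOL1. In Lv133KD against Lv143KD it gave -0.40 to 0.29 for SNAI1, -0.21 to 0.056 for TWIST1 and -0.17 to 0.069 for VIM. In OV143 it gave -0.074 to 0.047 for VIM, -0.086 to 0.0024 for TWIST1, -0.24 to 0.25 for FN1 and -0.16 to 0.070 for ESRP1. FPKM gives no depth, so precision rests on 3 libraries per group.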

Other observations

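Intermediate filament genes other than vimentin and the keratins were read in the same libraries. Of 8 tested genes 0 passed in OV143 in either limma fit, 4 lay wholly above the Lv20NC libraries and 1 wholly below, against 8.96% above and 12.9% below over all tested genes. Nestin (NES), a partner of vimentin in filaments, stood at 6.87, 6.13 and 6.69 FPKM in OV143, against 4.57, 4.39 and 4.68 FPKM in Lv20NC, with a log2 fold change of 0.45 and a limma adjusted p of 0.189 without and 0.0634 with the block. Without library 2 of OV143 it passed at 0.0141. Plectin (PLEC), a linker of filaments to junctions, stood at 52.0, 58.0 and 51.7 FPKM in OV143, against 67.3, 69.3 and 59.1 FPKM in Lv20NC, with a limma adjusted p of 0.389 without and 0.169 with the block. Both genes were chosen after their values were seen.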
